A study of Homo sapiens with 26 samples.

Results

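EXOC6, EVI5L, CTC1, RHBDL3, RHBDF2, THEM6, LETM2, SH3RF2, CLEC16A and SH3PXD2A are 10 genes whose transcripts were among the deepest falls in HCT116 cells exposed to leptomycin B. They are 10 of the 17283 genes with a named probe on the array and of the 12962 genes tested, and all 10 passed the filter on dim genes. They were chosen from the treated minus untreated changes described here, so those changes are given as a description, with standard errors and counts but no p-value. They were brought together by the size of a fall alone.

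HCT116 cells derive from a human colon carcinoma. The series used a pair of isogenic lines, labelled wild type and p53KO, grown in serum-supplemented McCoy medium. Cells were untreated or exposed for 16 h to leptomycin B at 2 or 20 nM, and total RNA was hybridised to one-colour Illumina arrays, 26 in all. Each label has 3 untreated arrays (replicates 4 to 6) and 3 arrays at 20 nM in slide series 1, and 4 untreated arrays (replicates 7 to 10) and 3 arrays at 2 nM in slide series 2. Each response below is the difference of treated and untreated arrays that share a label and a series, so there are 4: WT-labelled and KO-labelled at 20 nM, and WT-labelled and KO-labelled at 2 nM. The labels do not say whether replicates came from separate cultures, so the errors and p-values measure the spread between these arrays, which may be technical, and the number of arrays limits their precision.

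Leptomycin B binds covalently to XPO1 (CRM1), the receptor that carries proteins with a leucine-rich export signal, and some RNAs, out of the nucleus. With XPO1 blocked, its cargoes accumulate in the nucleus, and among them are many transcription factors and cell cycle regulators, p53 included. The 10 genes serve separate parts of the cell: vesicle tethering and Rab control (EXOC6, EVI5L), telomere maintenance (CTC1), the rhomboid family of membrane proteins (RHBDL3, RHBDF2), lipid metabolism (THEM6), mitochondria and their clearance (LETM2, CLEC16A), and SH3 domain scaffolds (SH3RF2, SH3PXD2A).

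The deleted gene itself was not analysed here, and CDKN1A, the p53-induced cell cycle inhibitor p21, served as a check of the labels. In series 1 it was lower in the untreated KO-labelled arrays (1291, 3463 and 3330) than in the WT-labelled ones (5212, 17672 and 17963), a log2 difference of -2.27 ± 0.37 (SE, n = 3 and 3, limma adjusted p = 0.000324). In series 2 it was higher in the KO-labelled arrays (4031, 4542, 4276 and 4672) than in the WT-labelled ones (615, 636, 665 and 1016), at 2.61 ± 0.32 (n = 4 and 4, limma adjusted p = 1.84e-05). The labels of the 2 series therefore go opposite ways at this gene, and WT-labelled and KO-labelled name only what a label says. Of 12 colon epithelial markers with a probe, 4 were over 100 on every array (EPCAM and the keratins KRT8 and KRT18 among them), and 3 (VIL1, CDX1 and LGALS4) were under 10 on every array, with summed intensities of 26714 to 40423. Of 11 fibroblast markers, 8 were under 10 on every array. Of 10 blood and endothelial markers, 6 were under 10 everywhere; the summed level of these 10 was 283 to 317 in the KO-labelled 20 nM and WT-labelled 2 nM arrays and 114 to 168 in the others, and its part in the results was not tested.

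All 10 genes fell in WT-labelled cells at 20 nM, where 22.2% of genes tested were called lower, and all 10 fell in KO-labelled cells at 20 nM, where 18.8% were. In WT-labelled cells at 2 nM 9 of the 10 were called lower, against 19.1% of genes tested. The exception, SH3PXD2A, was at -0.60 ± 0.26, close to RHBDL3, which was called at -0.62 ± 0.23. In KO-labelled cells at 2 nM all 10 were called lower, against 21.8%. SH3PXD2A apart, 9 genes were thus called lower in all 4 responses, as were 8.81% of the genes tested. Nothing is read from these counts because the same contrasts chose the genes. A call is a limma adjusted p under 0.05 over all genes tested. For genes of the lists below, fell and rose mean called lower and called higher. The responses are listed in the order WT-labelled 20 nM, KO-labelled 20 nM, WT-labelled 2 nM and KO-labelled 2 nM. In that order the median log2 change of the 10 was -2.68, -2.01, -2.19 and -2.36. The median over all genes tested was 0 in each. The filter on dim genes kept some that were under 10 on every array. These show no change, since intensities under 10 were set to 10, and they count in every share of genes tested.

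The treated and untreated arrays of all 10 genes lay apart in each of the 4 responses, as did those of 10.2% of genes tested. Taken singly, 24.9%, 21%, 23.9% and 23.6% of genes tested had treated arrays wholly below the untreated ones, in the order given above. The 14 untreated arrays of both labels and series were also set against all 12 treated ones, as a description, since the share over all genes tested was not computed. CLEC16A ran from 171 to 254 untreated and from 22.2 to 54.6 treated, and EXOC6 from 69.2 to 119.7 and from 13.6 to 19.8. CTC1, RHBDL3 and SH3PXD2A overlapped between the pooled groups. For CTC1 the lowest untreated array read 34.4 (KO-labelled replicate 5, series 1) and the highest treated one 35.1 (KO-labelled, 2 nM). Replicate 4 of that untreated arm read 105. The lowest untreated and highest treated arrays were 37.5 (KO-labelled, series 2) and 46.2 (WT-labelled, 2 nM) for RHBDL3. For SH3PXD2A they were 25.0 (WT-labelled, series 2) and 25.2 (KO-labelled, 2 nM). At 2 nM each response lies within 1 slide. At 20 nM treated and untreated arrays share no slide, so slide and treatment cannot be told apart there except through the spread between slides. With slide as a random block the calls of the 10 numbered 10, 10, 9 and 10, as without it. Nothing is read from that, since the same responses chose the genes. Calls over all genes, in either direction, went with that block from 5604 to 4655 and from 4816 to 3909 at 20 nM. At 2 nM they went from 4731 to 4960 and from 5631 to 5810 (WT-labelled first). In bulk RNA, fewer cells with a transcript and less of it per cell cannot be told apart.

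**Figure D1:**
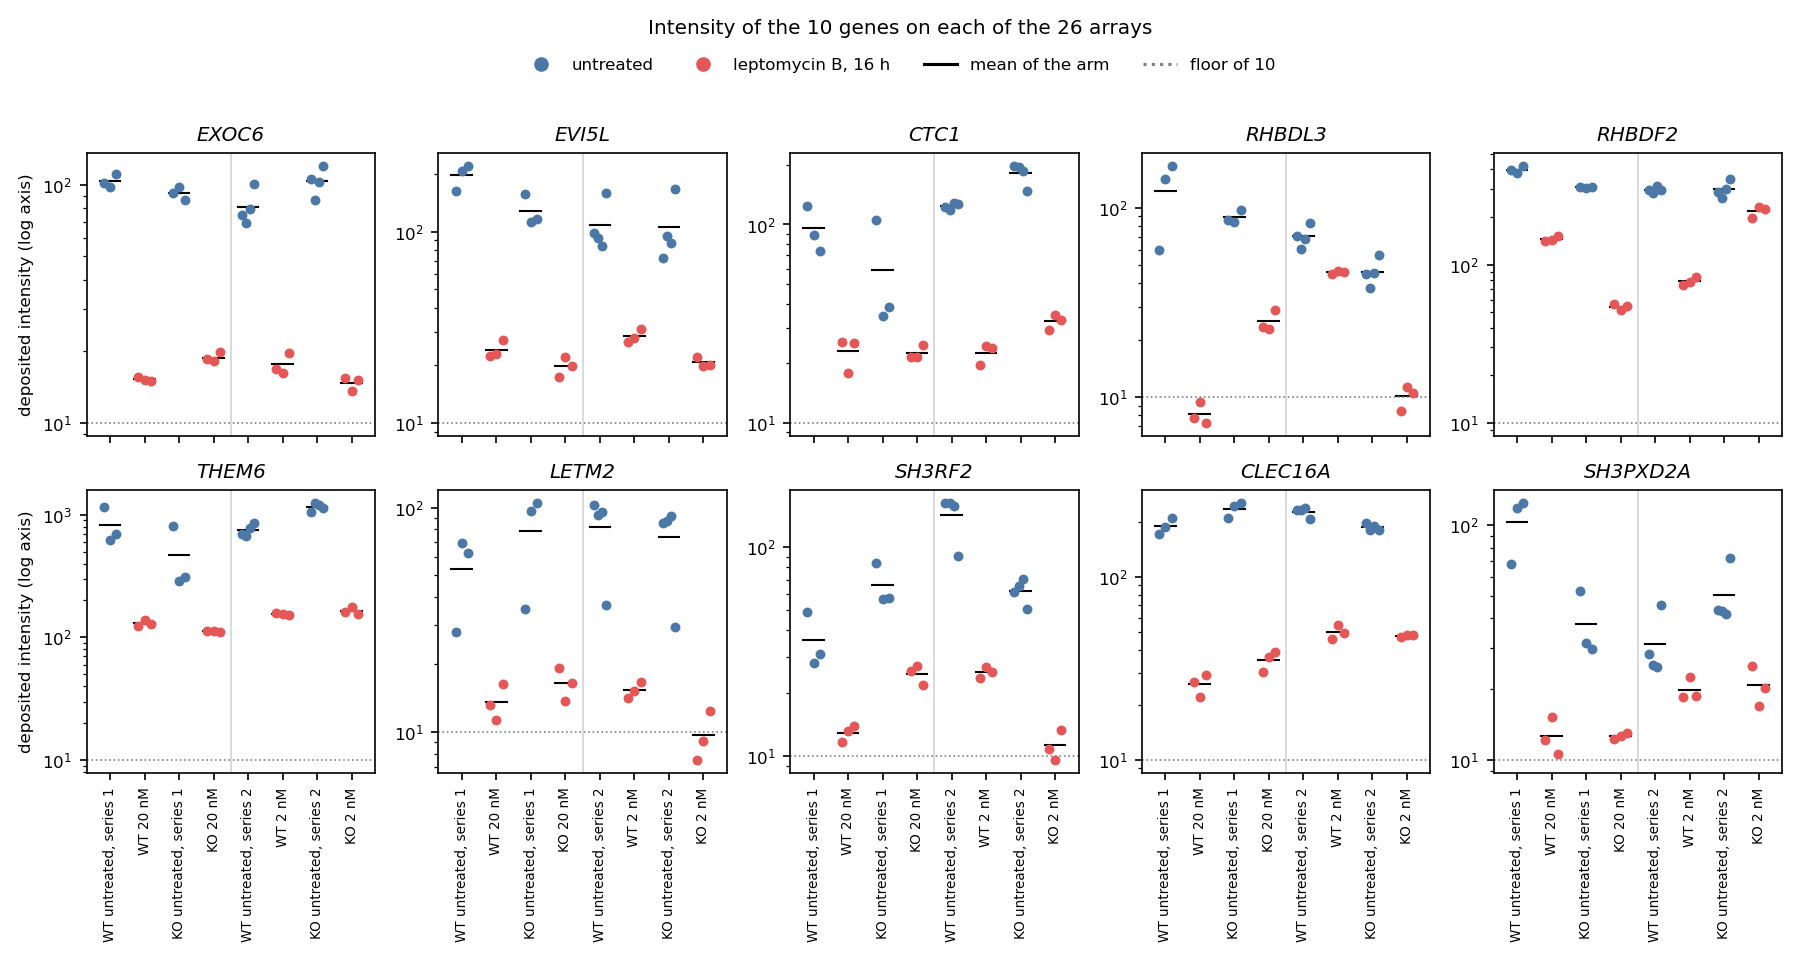
Deposited intensity (log axis) of each of the 10 genes on the 26 arrays, 1 panel a gene, with untreated arrays in blue, leptomycin B arrays in red, the arithmetic mean of each arm as a bar, and the floor of 10 dotted. EXOC6 stays between 13.6 and 19.8 on all 12 treated arrays, while RHBDL3 stays at 44.8 to 46.2 on the WT-labelled 2 nM arrays and is under the floor on all 3 WT-labelled 20 nM arrays.

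How far a gene's fall varied between the 4 responses differed among the 10. The range from the smallest to the largest log2 fall was 0.63 for EXOC6, 0.76 for LETM2, 0.90 for CLEC16A and 0.92 for THEM6. It was 1.07 for SH3RF2, 1.14 for EVI5L and 1.27 for CTC1. RHBDF2 (2.05), SH3PXD2A (2.39) and RHBDL3 (2.86) varied most. By the mean of the 4 changes, EXOC6 ranked 2nd of all genes tested (mean -2.51), behind IGF2BP3 (-2.53), EVI5L ranked 3rd, CLEC16A 4th, THEM6 6th and LETM2 10th, whereas SH3PXD2A ranked 110th and RHBDF2 115th.

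The choice can be set against the 8 largest called falls with arms apart in each response. RHBDL3 was 1st, EVI5L 5th and SH3PXD2A 8th in WT-labelled cells at 20 nM, where the next gene, CDCA7L, was at -2.95. CLEC16A was 2nd, EVI5L 4th and RHBDF2 6th in KO-labelled cells at 20 nM, with RXRA 8th (-2.43) and ADORA2B 9th (-2.38). SH3RF2 was 2nd, CTC1 3rd, LETM2 6th and THEM6 7th in WT-labelled cells at 2 nM, with EMG1 8th (-2.26) and NFE2L3 9th (-2.24). None of the 10 was among the first 8 in KO-labelled cells at 2 nM, where BRCA1 was 8th (-3.14) and HJURP 9th (-3.06). EXOC6 was in none of the first 8, at ranks 19, 12, 12 and 21.

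**Figure D2:**
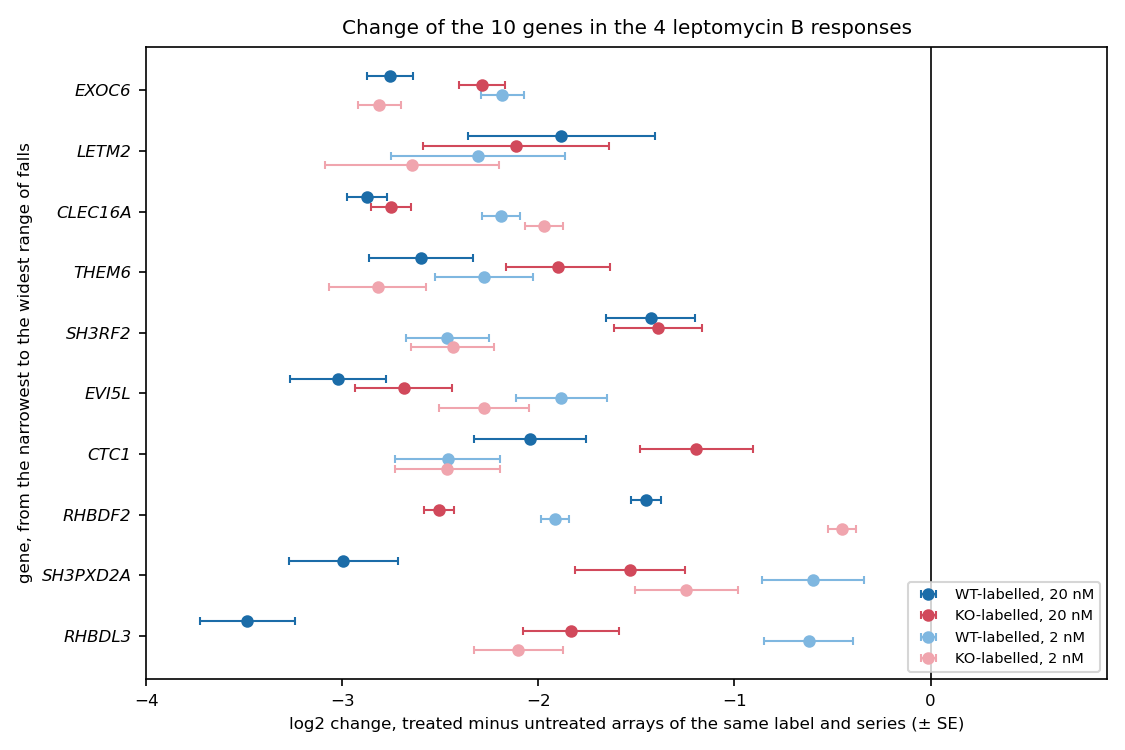
Log2 change ± SE of the 10 genes in the 4 responses (horizontal axis), ordered from the narrowest range of falls at the top to the widest at the bottom. EXOC6 lies between -2.81 and -2.18, while RHBDL3 runs from -3.48 to -0.62.

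Promoters of the 10 genes were read from RefSeq (GRCh38.p14), from 250 bases before to 50 bases after the transcription start, for the 6 genes with an entry: EXOC6, EVI5L, RHBDF2, SH3RF2, CLEC16A and SH3PXD2A. The 3 printed here belong to genes that led the falls in KO-labelled cells at 20 nM: CLEC16A (chr16:10944314-10944613, plus strand), EVI5L (chr19:7829968-7830267, plus strand) and RHBDF2 (chr17:76501378-76501677, minus strand). Each is printed 5′ to 3′ along the gene. Capitals mark CCAAT, the NF-Y motif, and GGGCGG, the GC box bound by SP1 factors, on either strand, and adjoining or overlapping matches run together.
CLEC16A: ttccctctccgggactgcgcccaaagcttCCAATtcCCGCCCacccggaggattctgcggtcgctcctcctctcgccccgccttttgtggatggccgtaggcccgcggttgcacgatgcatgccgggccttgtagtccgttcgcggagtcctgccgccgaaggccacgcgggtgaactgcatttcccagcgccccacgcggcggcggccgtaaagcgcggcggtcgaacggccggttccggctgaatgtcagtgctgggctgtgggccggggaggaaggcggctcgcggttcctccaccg
EVI5L: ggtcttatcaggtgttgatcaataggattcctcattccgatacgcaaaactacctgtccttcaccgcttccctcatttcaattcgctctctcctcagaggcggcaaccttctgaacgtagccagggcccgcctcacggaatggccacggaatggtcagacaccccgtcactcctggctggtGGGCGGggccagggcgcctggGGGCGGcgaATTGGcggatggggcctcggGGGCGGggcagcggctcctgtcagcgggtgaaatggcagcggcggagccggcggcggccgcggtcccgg
RHBDF2: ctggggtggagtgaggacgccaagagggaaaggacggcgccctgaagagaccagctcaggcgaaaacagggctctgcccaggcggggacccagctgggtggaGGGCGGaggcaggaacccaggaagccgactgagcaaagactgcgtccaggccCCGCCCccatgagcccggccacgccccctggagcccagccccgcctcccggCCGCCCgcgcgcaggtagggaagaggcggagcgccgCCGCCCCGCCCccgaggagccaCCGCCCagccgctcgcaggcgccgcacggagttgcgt
All 3 are rich in G and C, at 69.3% in CLEC16A, 65.3% in EVI5L and 74.3% in RHBDF2, where the median of 35114 promoters was 58.7%. CLEC16A has 1 CCAAT and 1 GC box, EVI5L has 1 and 3, and RHBDF2 has 6 GC boxes and no CCAAT.

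Across the 6 promoters CCAAT was found in 2 (34.6% of all promoters) and GGGCGG in 4 (45%). TTTGAA, the CHR element of cell cycle genes, was found in EXOC6 and SH3RF2 (15.2% of all promoters). The CRE TGACGTCA (1.85%), the E2F motifs TTTCGCGC and TTTGGCGC (1.15%), the AP-1 motif TGACTCA (4.95%), TATAAA (11.5%) and the E-box CACGTG (7.26%) were in none of the 6 windows. Base composition depended on the start read. The outermost of the 3 starts of EXOC6 had 40.3% G and C and the innermost 77%, and the outermost of the 5 starts of SH3PXD2A had 79.3% and the other 4 had 58% to 64.3%. SH3RF2, with 1 start, had 44.3%. The motif counts are those of the outermost start. The genes themselves run from 9.7 kb (THEM6) to 262 kb (SH3PXD2A, chr10:103594027-103855576), with EXOC6 at 233 kb and CLEC16A at 238 kb. Their median length was 46.8 kb against 27.5 kb over genes tested with a length, and 7 of the 10 were longer than that median.

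EXOC6 encodes a subunit of the exocyst, the complex that tethers secretory vesicles to the plasma membrane (chr10:92826831-93059490). Its untreated arrays read 101, 97.9 and 110.4 (WT-labelled) and 92.5, 97.4 and 86.0 (KO-labelled) in series 1, and the 20 nM arrays read 15.6, 15.2 and 15.0 (WT-labelled) and 18.5, 18.2 and 19.8 (KO-labelled). In series 2 the untreated arrays read 74.3, 69.2, 79.1 and 100.3 (WT-labelled) and 106, 86.4, 103 and 119.7 (KO-labelled), against 16.9, 16.2 and 19.8 (WT-labelled) and 15.4, 13.6 and 15.1 (KO-labelled) at 2 nM. The lowest untreated array stood 3.5 times above the highest treated one. The log2 changes were -2.76 ± 0.12 and -2.29 ± 0.12 at 20 nM and -2.18 ± 0.11 and -2.81 ± 0.11 at 2 nM (WT-labelled first, n = 3 treated against 3 or 4 untreated arrays, as for every gene below), folds of 4.55 to 7.01.

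The exocyst list, which was chosen like the other lists with earlier results of these data known, has 7 tested genes beside EXOC6. Of these, 3, 2, 3 and 2 were called lower and 3, 2, 2 and 3 higher in the 4 responses (order as above; 21.1%, 18.3%, 17.4% and 21.6% of genes tested were called higher), with medians of -0.37, -0.090, -0.40 and 0.24. EXOC7, a subunit that binds membrane phosphoinositides, fell in all 4 responses, by at most 1.03 on the log2 scale (-1.03 ± 0.10, WT-labelled, 20 nM). EXOC8 rose in all 4, from 0.63 ± 0.08 to 1.14 ± 0.08. EXOC1 rose in 3, by 0.73 ± 0.13 in KO-labelled cells at 2 nM. The exocyst subunits therefore did not move in one direction.

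EVI5L encodes a TBC domain protein, the domain of GTPase-activating proteins that switch off Rab GTPases (chr19:7830218-7864976). WT-labelled arrays read 164, 206 and 219.9 untreated and 22.3, 22.8 and 27.2 at 20 nM, and KO-labelled arrays read 156, 113 and 117 untreated and 17.4, 22.1 and 19.9 at 20 nM. In series 2 the readings were 98.8, 92.2, 83.9 and 159 untreated and 26.5, 27.9 and 31.2 at 2 nM (WT-labelled), and 73.1, 95.2, 87.0 and 167 untreated and 22.2, 20.0 and 20.1 at 2 nM (KO-labelled). Untreated replicate 10 was the highest of its 4 arrays under both labels, and the treated arrays stayed between 17.4 and 31.2. The changes were -3.02 ± 0.25 and -2.69 ± 0.25 at 20 nM and -1.88 ± 0.23 and -2.28 ± 0.23 at 2 nM, so the fall of 8.12-fold in WT-labelled cells at 20 nM compares with 3.69-fold at 2 nM.

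Of 26 other TBC domain RabGAP genes tested, 13, 10, 7 and 7 were called lower and 3, 2, 3 and 5 higher, with medians of -0.40, -0.37, -0.097 and -0.086. TBC1D16 fell in all 4 responses, by 1.65 ± 0.26 in KO-labelled cells at 2 nM. TBC1D22A fell in all 4 as well (-1.39 ± 0.08, -1.14 ± 0.08, -1.22 ± 0.08 and -1.35 ± 0.08). TBC1D2, which acts on RAB7A, fell in 3, by 2.13 ± 0.27 in KO-labelled cells at 20 nM, and was at -0.41 ± 0.25 in KO-labelled cells at 2 nM. SGSM3 went the other way and rose in 3, by 1.39 ± 0.17 in WT-labelled cells at 20 nM. EVI5, the paralogue of EVI5L, was called in 1 response only, at 0.96 ± 0.38 in KO-labelled cells at 2 nM.

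CTC1 encodes the large subunit of the CST complex, which with STN1 and TEN1 binds single-stranded telomeric DNA and helps to copy the lagging strand (chr17:8224815-8248056). In WT-labelled cells it went from 124, 88.6 and 73.9 to 25.6, 18 and 25.4 at 20 nM, and from 122, 119, 129 and 127 to 19.5, 24.5 and 23.9 at 2 nM. In KO-labelled cells it went from 105, 34.4 and 38.2 to 21.5, 21.6 and 24.8 at 20 nM, and from 197, 194, 185 and 147 to 29.6, 35.1 and 33.2 at 2 nM. The untreated KO-labelled arrays of series 1 were split, with replicate 4 far above replicates 5 and 6. The changes were -2.04 ± 0.29 and -1.19 ± 0.29 at 20 nM and -2.46 ± 0.27 in both labels at 2 nM. Without untreated KO-labelled replicate 4, the KO-labelled 20 nM change was -0.68 and was still called.

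Of 7 other genes tested of CST and shelterin, the telomere-capping complex, 4, 2, 1 and 2 were called lower and 2, 1, 1 and 1 higher. Their medians were -0.72, 0.0081, -0.13 and -0.22. TERF2, the shelterin subunit that protects the telomere end, fell in 3 responses, by 1.5 ± 0.17 in WT-labelled cells at 20 nM, and was at -0.01 ± 0.16 in WT-labelled cells at 2 nM. TERF2IP, its binding partner, rose in 3, by 1.32 ± 0.18 in KO-labelled cells at 2 nM. TERF1 rose at 20 nM in both labels (0.83 ± 0.31 and 1.24 ± 0.31). STN1, the partner of CTC1, was called in none of the 4 responses, at -0.27 ± 0.29, 0.02 ± 0.29, -0.69 ± 0.28 and -0.22 ± 0.28.

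RHBDL3 encodes a member of the rhomboid family of intramembrane serine proteases (chr17:32265832-32324661). WT-labelled arrays read 59.6, 141 and 166 untreated in series 1 and 7.70, 9.36 and 7.27 at 20 nM, and KO-labelled arrays read 86.4, 83.6 and 97.0 untreated and 23.5, 22.9 and 28.8 at 20 nM. In series 2 WT-labelled arrays read 70.5, 60.7, 67.9 and 83.4 untreated and 44.8, 46.2 and 45.9 at 2 nM, and KO-labelled arrays read 44.4, 37.5, 45.4 and 56.1 untreated and 8.45, 11.2 and 10.5 at 2 nM. The treated level was thus lowest in WT-labelled cells at 20 nM and in KO-labelled cells at 2 nM, and the WT-labelled 2 nM arrays lay within the range of the untreated KO-labelled arrays of series 2. All 3 WT-labelled 20 nM arrays were under the floor of 10, so the fall there was at least 11.2-fold. The other changes were -1.83 ± 0.24 (KO-labelled, 20 nM), -0.62 ± 0.23 (WT-labelled, 2 nM) and -2.10 ± 0.23 (KO-labelled, 2 nM, with 1 of 3 treated arrays under the floor). The call in WT-labelled cells at 2 nM was lost when untreated WT-labelled replicate 7, 9 or 10 or any 1 of the 3 treated arrays was left out (changes of -0.64 to -0.54), and when no filter on dim genes was applied.

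RHBDF2 encodes iRhom2, a rhomboid relative without protease activity that escorts the sheddase ADAM17 to the cell surface (chr17:76470893-76501427). Series 1 went from 393, 378 and 418 untreated to 141, 143 and 151 at 20 nM in WT-labelled cells, and from 309, 304 and 308 to 56.1, 51.3 and 54.7 in KO-labelled cells. Series 2 went from 294, 282, 312 and 297 untreated to 74.3, 77.8 and 83.3 at 2 nM in WT-labelled cells, and from 288, 263, 299 and 346 to 198, 231 and 224 in KO-labelled cells. The order of the labels thus turned between the series, with the deeper fall in KO-labelled cells at 20 nM and in WT-labelled cells at 2 nM. The changes were -1.45 ± 0.076 and -2.51 ± 0.076 at 20 nM and -1.92 ± 0.071 and -0.45 ± 0.071 at 2 nM. The smallest of these, in KO-labelled cells at 2 nM, was a fall of 1.37-fold with the arms still apart, and the largest was 5.69-fold.

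Of 12 other rhomboid genes and partners tested, 2, 3, 2 and 2 were called lower and 3, 2, 3 and 5 higher, with medians of -0.050, -0.23, 0.016 and 0.37. EGFR, the receptor of several ADAM17 substrates, fell in all 4 responses (-1.46 ± 0.11, -1.98 ± 0.11, -1.12 ± 0.11 and -1.61 ± 0.11). HBEGF, a ligand of that receptor that ADAM17 can shed, rose in 3, by 2.49 ± 0.57, 2.42 ± 0.53 and 2.95 ± 0.53, and was at 0.99 ± 0.57 in KO-labelled cells at 20 nM. RHBDD1, an active rhomboid of the endoplasmic reticulum, fell in all 4, from -1.15 ± 0.11 to -1.28 ± 0.10, while RHBDD2 rose in all 4, from 0.94 ± 0.19 to 1.37 ± 0.20. ADAM17 itself was called in none, at -0.17 ± 0.18, -0.23 ± 0.18, 0.13 ± 0.17 and 0.12 ± 0.17. RHBDF1, the paralogue of RHBDF2, was called in 1 response only, at 0.82 ± 0.18 in KO-labelled cells at 2 nM.

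THEM6 encodes a member of the thioesterase superfamily (chr8:142727223-142736927). WT-labelled arrays went from 1147, 617 and 701 to 123, 139.8 and 129.6 at 20 nM, and from 702, 672, 779.9 and 851 to 157, 154 and 152 at 2 nM. KO-labelled arrays went from 809, 291 and 311 to 113, 112 and 112 at 20 nM, and from 1051, 1245, 1209 and 1139 to 161, 177 and 155 at 2 nM. Untreated replicate 4 was the highest of its 3 arrays under both labels, and the 12 treated arrays stayed between 112 and 177. The changes were -2.60 ± 0.27 and -1.90 ± 0.27 at 20 nM and -2.28 ± 0.25 and -2.82 ± 0.25 at 2 nM, the last a fall of 7.06-fold.

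Of 6 other acyl-CoA thioesterase genes tested, 5, 3, 3 and 6 were called lower and none higher, with medians of -0.68, -0.40, -0.47 and -0.68. ACOT11 fell in all 4 responses (-1.84 ± 0.42, -1.43 ± 0.42, -2.02 ± 0.39 and -1.62 ± 0.39). ACOT13, a mitochondrial thioesterase, fell in all 4 as well, from -0.68 ± 0.19 to -1.11 ± 0.18. ACOT9 fell in 3 and was at -0.34 ± 0.19 in WT-labelled cells at 2 nM. THEM4 fell at 2 nM in both labels (-0.61 ± 0.17 and -0.50 ± 0.17) and was at 0.14 ± 0.18 and 0.43 ± 0.18 at 20 nM.

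LETM2 encodes a relative of LETM1, an inner mitochondrial membrane protein of ion exchange (chr8:38382431-38409527). Series 1 went from 28, 69.5 and 63.1 to 13.2, 11.3 and 16.3 in WT-labelled cells, and from 35.5, 96.6 and 105 to 19.3, 13.8 and 16.6 in KO-labelled cells. Series 2 went from 102, 92.8, 95.7 and 36.7 to 14.2, 15.2 and 16.8 in WT-labelled cells, and from 85.9, 87.7, 92.0 and 29.4 to 7.5, 9.09 and 12.4 in KO-labelled cells, where 2 of 3 treated arrays were under the floor. In each untreated arm 1 array stood well below the rest, replicate 4 in series 1 and replicate 10 in series 2, and still above every treated array. LETM2 therefore had the widest errors of the 10, with changes of -1.88 ± 0.48 and -2.12 ± 0.48 at 20 nM and -2.31 ± 0.44 and -2.65 ± 0.44 at 2 nM.

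Of 7 other genes tested of the LETM family and mitochondrial ion exchange, 3, 2, 2 and 3 were called lower and 1, 0, 0 and 1 higher. Their medians were -0.35, -0.17, -0.094 and -0.19. LETM1 fell at 2 nM in both labels (-1.14 ± 0.24 and -1.19 ± 0.24) and was at -0.35 ± 0.26 and -0.38 ± 0.26 at 20 nM. LETMD1 fell in 3, by 1.19 ± 0.22 in WT-labelled cells at 20 nM. MCUB, an inhibitory subunit of the mitochondrial calcium uniporter, fell in WT-labelled cells at 20 nM (-0.98 ± 0.14) and in KO-labelled cells at 2 nM (-1.0 ± 0.13) and was at -0.17 ± 0.14 and -0.09 ± 0.13 in the others. SLC8B1 rose in these same responses, by 0.21 ± 0.07 and 0.58 ± 0.06.

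CLEC16A encodes a membrane-associated E3 ubiquitin ligase that regulates mitophagy and endolysosomal traffic with RNF41 and USP8 (chr16:10944564-11182186). WT-labelled arrays read 171, 189 and 209 untreated in series 1 and 26.6, 22.2 and 29.1 at 20 nM, and KO-labelled arrays read 211, 244 and 254 untreated and 30.3, 36.4 and 38.7 at 20 nM. WT-labelled arrays of series 2 read 233, 233, 237 and 208 untreated and 46.1, 54.6 and 49.2 at 2 nM, and KO-labelled arrays read 198, 180.4, 190.1 and 181 untreated and 47.0, 48.1 and 48.4 at 2 nM. All 20 nM arrays were below all 2 nM arrays, and the highest treated array was under the lowest untreated one by 3.13 times. The changes were -2.87 ± 0.10 and -2.75 ± 0.10 at 20 nM and -2.19 ± 0.097 and -1.97 ± 0.097 at 2 nM. In folds, these were 7.33 and 6.73 at 20 nM and 4.56 and 3.92 at 2 nM.

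Of 14 other genes tested of the CLEC16A and mitophagy list, 6, 3, 3 and 1 were called lower and 3, 4, 1 and 4 higher, with medians of -0.24, -0.12, 0.18 and 0.14. BNIP3L, a mitophagy receptor of the outer mitochondrial membrane, fell at 20 nM in both labels (-2.78 ± 0.47 and -1.36 ± 0.47) and was at 0.41 ± 0.44 and -0.64 ± 0.44 at 2 nM. CALCOCO2, an autophagy receptor, fell at 20 nM (-1.33 ± 0.25 and -1.27 ± 0.25) and was at -0.56 ± 0.23 and -0.48 ± 0.23 at 2 nM, a difference between doses that was not tested. VPS39, a subunit of the HOPS tether of late endosomes, rose in all 4 responses, from 0.95 ± 0.16 to 1.31 ± 0.17. RNF41 fell in 3 responses (-0.53 ± 0.12, -0.35 ± 0.12 and -0.39 ± 0.11) and was at 0.10 ± 0.11 in KO-labelled cells at 2 nM. USP8 rose in WT-labelled cells at 20 nM (0.33 ± 0.09) and in KO-labelled cells at 2 nM (0.39 ± 0.09). No other gene of this list fell in all 4 responses.

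SH3RF2 encodes a RING and SH3 domain protein of the POSH family of JNK pathway scaffolds (chr5:145936578-146081773). WT-labelled arrays went from 49.2, 27.8 and 30.7 to 11.7, 13.2 and 14 at 20 nM, and from 163, 162, 157 and 90.6 to 23.8, 26.7 and 25.3 at 2 nM. KO-labelled arrays went from 84.0, 56.8 and 57.4 to 25.6, 26.9 and 22.0 at 20 nM, and from 61.1, 64.9, 70.1 and 50.8 to 10.9, 9.60 and 13.3 at 2 nM, where 1 of 3 was under the floor. In each series the label with the higher untreated level also had the higher treated level. Within a dose the labels had nearly the same change, -1.43 ± 0.23 and -1.39 ± 0.23 at 20 nM and -2.46 ± 0.21 and -2.44 ± 0.21 at 2 nM.

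Of 8 other SH3RF and JNK pathway genes tested, 4, 2, 3 and 2 were called lower and 0, 1, 1 and 0 higher, with medians of -0.37, -0.31, -0.34 and -0.16. PAK4, a kinase of actin control that SH3RF2 binds, fell in all 4 responses, from -0.36 ± 0.07 to -0.69 ± 0.07. MAPK8IP3, a JNK scaffold, fell in 3, by 0.92 ± 0.20 in KO-labelled cells at 20 nM. MAPK9, which encodes JNK2, fell in WT-labelled cells at 20 nM (-0.83 ± 0.15) and in KO-labelled cells at 2 nM (-0.87 ± 0.14). SH3RF1, the POSH paralogue, was called in none, at -0.16 ± 0.16, -0.29 ± 0.16, 0.21 ± 0.15 and -0.10 ± 0.15.

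SH3PXD2A encodes TKS5, the scaffold on which invadopodia and podosomes, the matrix-degrading protrusions of invasive cells, are built (chr10:103594027-103855576). In series 1 it went from 68.3, 118 and 124 to 12.1, 15.3 and 10.6 in WT-labelled cells, and from 52.5, 31.6 and 29.7 to 12.3, 12.6 and 13.1 in KO-labelled cells. In series 2 it went from 28.3, 25.3, 25.0 and 45.8 to 18.5, 22.5 and 18.7 in WT-labelled cells, and from 43.7, 42.9, 41.7 and 72.2 to 25.2, 17.0 and 20.3 in KO-labelled cells. The treated arrays spanned 10.6 to 25.2 and the untreated ones 25.0 to 124, of which the highest, 118 and 124, were WT-labelled arrays of series 1. The changes were -2.99 ± 0.28 and -1.53 ± 0.28 at 20 nM, and -1.24 ± 0.26 in KO-labelled cells at 2 nM. In WT-labelled cells at 2 nM the change was -0.60 ± 0.26, with the arms apart but no call. Without untreated WT-labelled replicate 10, the highest of its arm, that value was -0.40.

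Of 12 other genes tested of the invadopodium list, 4, 5, 3 and 4 were called lower and 1, 1, 2 and 4 higher, with medians of -0.19, -0.38, -0.14 and -0.072. SH3PXD2B, the paralogue TKS4, fell in all 4 responses (-1.63 ± 0.29, -1.35 ± 0.29, -1.24 ± 0.27 and -1.47 ± 0.27). ADAM19, a TKS5-binding metalloprotease, fell at 2 nM (-1.82 ± 0.51 and -1.76 ± 0.51) and was at -1.22 ± 0.54 and -0.75 ± 0.54 at 20 nM. WASL, an activator of the ARP2/3 complex, fell in 3 responses, by 1.39 ± 0.18 in WT-labelled cells at 20 nM. ACTR3, a subunit of that complex, fell at 20 nM (-0.81 ± 0.26 and -1.40 ± 0.26) and was at -0.44 ± 0.24 and -0.35 ± 0.24 at 2 nM. The invadopodium genes thus held falls in both series and rises as well.

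Other probes could be checked for 2 of the 10 genes, since the other 8 have 1 probe each. EXOC6 has 3 probes. Probe 11933, with the highest mean, gave the values above. Probe 19501 ran from -3.12 to 14.7 and was under the floor of 10 on 19 of 26 arrays. The 7 arrays over it were all untreated arrays of series 2. Every series 1 array of this probe was under the floor, so its 20 nM changes, 0 in both labels, were set by the floor. At 2 nM its changes were -0.21 ± 0.078 (WT-labelled) and -0.28 ± 0.078 (KO-labelled), the last a call. With a floor of 5 these 2 nM changes were -1.03 and -1.13, both called. Those at 20 nM were then -0.19 in both labels, with no call. Probe 11934 was under the floor on all 26 arrays and so gives no measure of a fall.

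RHBDF2 has 2 probes whose readings went separate ways. Probe 4610 ran from 51.3 to 418 and gave the falls above. Probe 11070 ran from 16.4 to 33.9, over the floor on all 26 arrays, and was lower in none of the responses, at 0.08 ± 0.16, 0.21 ± 0.16, -0.07 ± 0.15 and 0.47 ± 0.15, the last called higher. With the mean of both probes in place of the brighter one, RHBDF2 was at -0.68, -1.15, -0.99 and 0.01. Over the 3 other probes and 4 responses, 1 of 12 pairs was called lower. The probe sequences were not used here, so which transcripts each probe reads is not given.

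**Figure D3:**
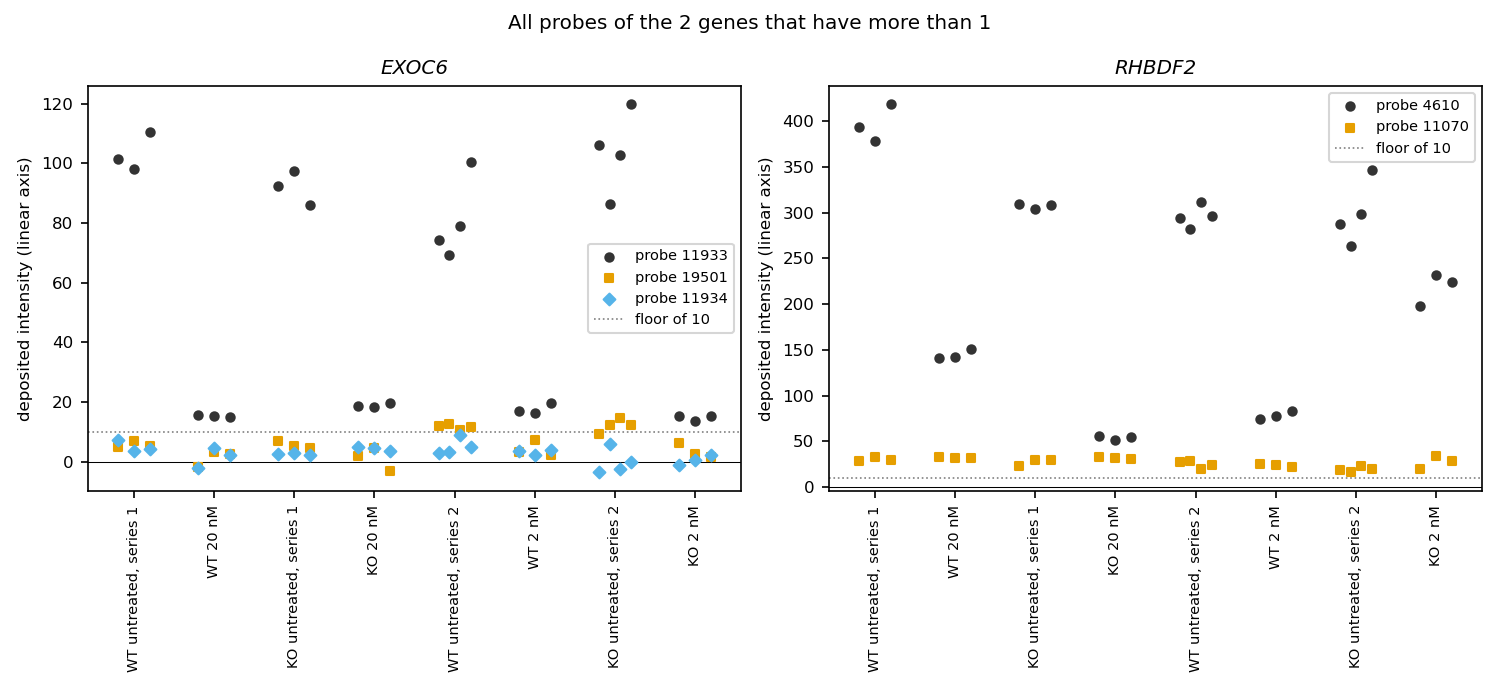
Deposited intensity (linear axis) of all 3 probes of EXOC6 and both probes of RHBDF2 on the 26 arrays, grouped by arm, with the floor of 10 dotted. Probe 11933 of EXOC6 and probe 4610 of RHBDF2 drop with leptomycin B in every arm, while probe 11070 of RHBDF2 stays between 16.4 and 33.9.

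The labels were then compared in untreated cells. The untreated arrays are also the baseline of the responses that chose the genes, so these differences are a description too, with no p-value. Untreated arrays with the same replicate number deviated together, though in series 2 replicates 7 and 8 matched another number better. Calls that change with the replicate number as a block are given. In series 1 (n = 3 and 3), 5 of the 10 genes passed the threshold, where 14.9% of genes tested did. RHBDF2 (-0.37 ± 0.076), THEM6 (-0.92 ± 0.27) and SH3PXD2A (-1.45 ± 0.28) were lower in KO-labelled arrays, and SH3RF2 (0.90 ± 0.23) and CLEC16A (0.32 ± 0.10) were higher. With the replicate block 8 passed, where 3997 of 12962 genes tested did, EVI5L (-0.62 ± 0.17), CTC1 (-0.85 ± 0.18) and LETM2 (0.52 ± 0.099) joining these 5. With slide as a random block 3 passed, without THEM6 (-0.62) and CLEC16A (0.27), and with slide as a fixed block none did, THEM6 being at 0.0321. Leaving out 1 array ended the call of CLEC16A (WT-labelled replicate 4 or 5, or KO-labelled 5 or 6), THEM6 (WT-labelled 4, or KO-labelled 5 or 6) and SH3RF2 (WT-labelled 5). EXOC6 (-0.17 ± 0.12) and RHBDL3 (-0.33 ± 0.24) passed neither with nor without the replicate block.

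In series 2 (n = 4 and 4), 2 of the 10 passed, where 9.15% of genes tested did: EXOC6 was higher in KO-labelled arrays (0.37 ± 0.10) and SH3RF2 lower (-1.18 ± 0.20). The call of EXOC6 was lost with slide as a random block, with only these arrays in the fit, and on leaving out replicate 7, 8 or 9 of the WT-labelled arrays, or 7, 9 or 10 of the KO-labelled ones. With the replicate block 6 passed, where 2786 of 12962 genes tested did, CTC1 (0.53 ± 0.16), RHBDL3 (-0.63 ± 0.18), THEM6 (0.63 ± 0.10) and CLEC16A (-0.28 ± 0.070) joining. SH3RF2 thus had label differences of opposite sign in the 2 series, each reverse to that of CDKN1A, and with the replicate block CTC1, THEM6 and CLEC16A also passed in both series with opposite signs. In series 2 each label lies on a slide of its own, so slide and label cannot be told apart there. The untreated label differences are drawn beside those of the responses in the plot of label differences.

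**Figure D4:**
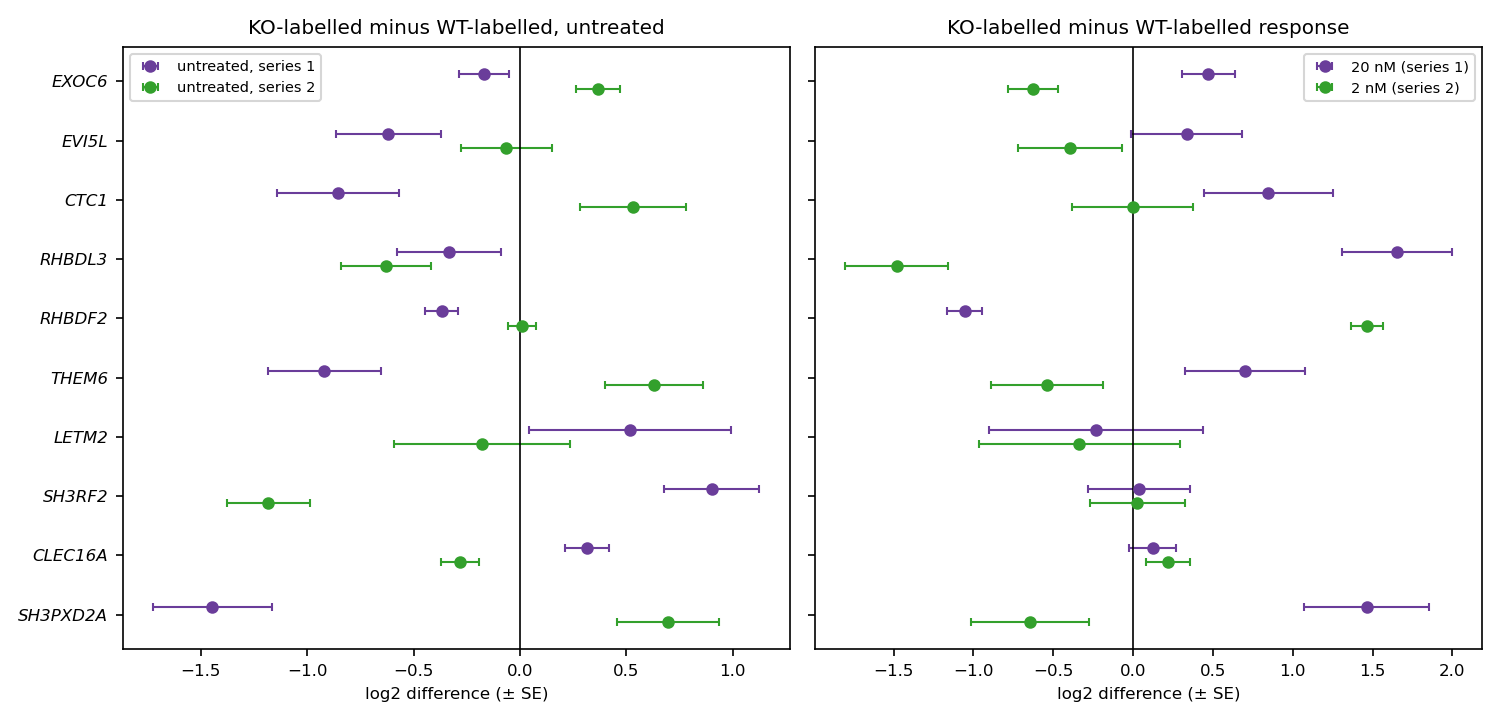
Log2 difference ± SE between KO-labelled and WT-labelled arrays for the 10 genes, in untreated cells (left) and as the difference of the leptomycin B responses (right), series 1 or 20 nM in purple and series 2 or 2 nM in green. SH3RF2 goes from 0.90 to -1.18 between the untreated series, and RHBDL3 from 1.65 to -1.48 and RHBDF2 from -1.06 to 1.46 between the responses.

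The responses of the labels were also set against each other, a difference of the values that chose the genes. At 20 nM the difference, KO-labelled minus WT-labelled response, was past the threshold for 3 of the 10, where 8.85% of genes tested were. RHBDL3 (1.65 ± 0.34) and SH3PXD2A (1.46 ± 0.39) fell less, and RHBDF2 (-1.06 ± 0.11) fell more, in KO-labelled cells. The call of SH3PXD2A was lost with slide as a random block (1.35), with only these arrays, and without WT-labelled 20 nM replicate 1 or 3, KO-labelled 20 nM replicate 3 or untreated replicate 5 or 6 of either label (1.31 to 1.44), and that of RHBDL3 with a floor of 30 (0.33) or only these arrays, and both were lost with slide as a fixed block. With the replicate block 6 passed, where 2868 of 12962 genes tested did, with EXOC6 (0.47 ± 0.10), CTC1 (0.85 ± 0.26) and THEM6 (0.70 ± 0.17) added. At 2 nM it was past the threshold for 3, where 11.9% of genes tested were: EXOC6 (-0.63 ± 0.15) and RHBDL3 (-1.48 ± 0.32) fell more in KO-labelled cells, and RHBDF2 (1.46 ± 0.10) fell less. The call of EXOC6 was lost with a floor of 30 (-0.37) or only these arrays, and RHBDL3 was at 0.0242 with that floor. With the replicate block THEM6 (-0.54 ± 0.16) was added, where 3003 of 12962 genes tested passed. At both doses that block also paired treated arrays by number, a pairing their correlations did not bear out. RHBDL3 and RHBDF2 thus each had differences of opposite sign in the 2 series. SH3RF2 (0.04 ± 0.32 and 0.03 ± 0.30) and CLEC16A (0.12 ± 0.15 and 0.22 ± 0.14) had the smallest differences between labels over both doses.

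Doses were compared as the 20 nM minus the 2 nM response of each label, each against its own untreated arrays, and beyond that dose and slide series cannot be told apart. Since the labels of the 2 series go opposite ways at CDKN1A, dose and the cells behind a label cannot be told apart either. A gene chosen for its fall at 1 dose is bound to lean towards a difference here, so nothing is read from the counts. In WT-labelled cells 7 of the 10 passed the threshold, where 19.5% of genes tested did. RHBDL3 (-2.86 ± 0.33), SH3PXD2A (-2.39 ± 0.38), EVI5L (-1.14 ± 0.34), CLEC16A (-0.68 ± 0.14) and EXOC6 (-0.57 ± 0.16) fell more at 20 nM, and SH3RF2 (1.04 ± 0.31) and RHBDF2 (0.46 ± 0.10) fell more at 2 nM. Leaving out 1 array ended the call of EVI5L (20 nM replicate 1 or 2, untreated 5 or 6, or 2 nM replicate 3), EXOC6 (2 nM replicate 3) and SH3RF2 (20 nM replicate 3, untreated 5 or 6, or 2 nM replicate 1). In KO-labelled cells 5 passed, where 21.4% of genes tested did. RHBDF2 (-2.05 ± 0.10) and CLEC16A (-0.78 ± 0.14) fell more at 20 nM, and CTC1 (1.27 ± 0.39), SH3RF2 (1.05 ± 0.31) and EXOC6 (0.52 ± 0.16) fell more at 2 nM. Here the call ended for CTC1 (without 20 nM replicate 3, untreated 5 or 6, or 2 nM replicate 1), SH3RF2 (20 nM replicate 2, untreated 5 or 6, or 2 nM replicate 2) and EXOC6 (20 nM replicate 3, untreated 6, or 2 nM replicate 2). CLEC16A and SH3RF2 kept 1 direction under both labels, and EXOC6 and RHBDF2 changed direction.

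Spread among untreated arrays was uneven across the 10 genes. Replicate 4 of series 1 and replicate 10 of series 2 stood apart under both labels. LETM2 was the lowest of its arm on all 4 of these arrays, by 1.24 to 1.59 on the log2 scale below the mean of the others. CLEC16A was below the others on all 4 too, but by 0.064 to 0.24. EVI5L, THEM6 and SH3PXD2A were the highest of their arm on 3 of the 4. CLEC16A stayed within -0.16 and 0.15 of its arm means and RHBDF2 within -0.18 and 0.22. Leaving these 4 arrays out left all 10 genes called lower in all 4 responses. Calls over all genes, in either direction, rose too, from 5604 to 7246 (WT-labelled) and from 4816 to 6990 (KO-labelled) at 20 nM. At 2 nM they rose from 4731 to 6654 and from 5631 to 7170. The same responses chose the 10 genes, so nothing is read from that count.

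**Figure D5:**
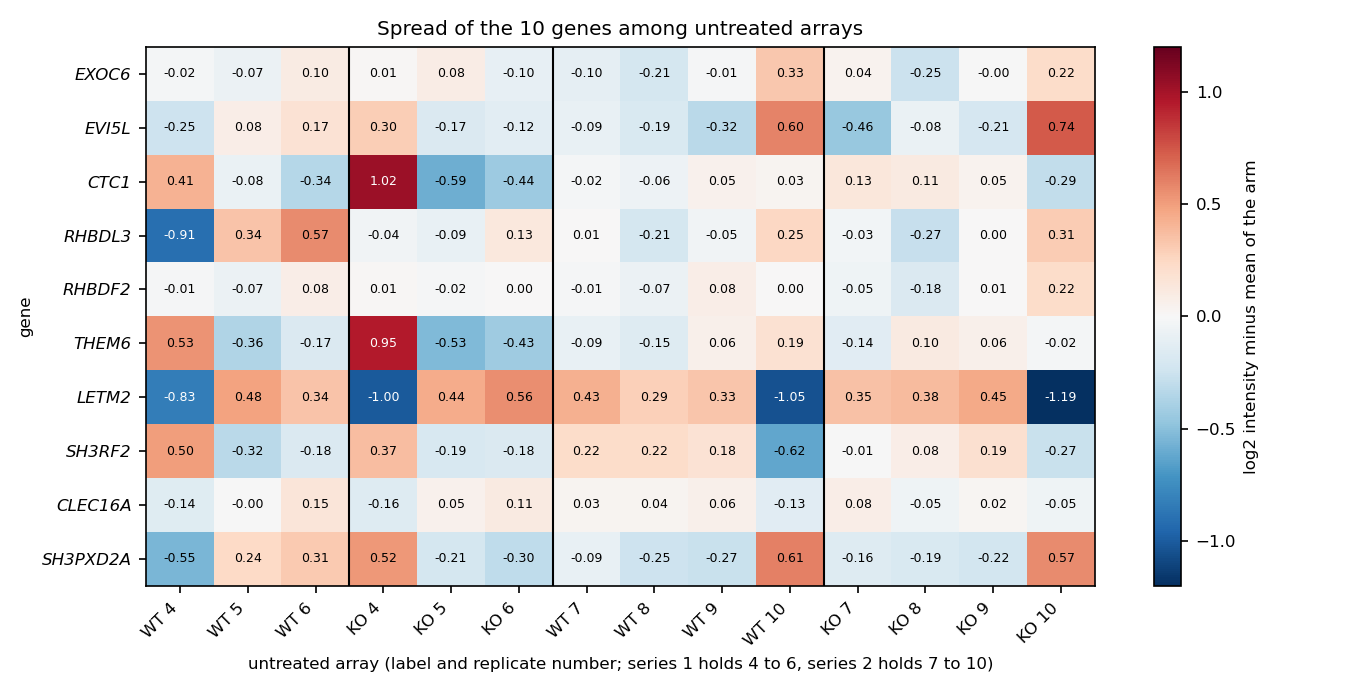
Log2 intensity of each gene on each of the 14 untreated arrays minus the mean of its arm (colour and printed value), with arms set apart by lines. LETM2 is lowest on replicates 4 and 10 of both labels, at -0.83, -1.0, -1.05 and -1.19, while RHBDF2 stays within -0.18 and 0.22.

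The gene whose pattern over the 26 arrays was most like each of the 10 was sought among the other 12952 genes tested, by Pearson's r of floored log2 intensity. Such an r takes in the large group differences that all arrays share and is given as a description. The closest were ABR to EXOC6 (r = 0.980), UFSP2 to EVI5L (0.972), CUTC to CTC1 (0.979), PACSIN2 to RHBDL3 (0.962) and STRADA to RHBDF2 (0.973). LRRC56 was closest to THEM6 (0.981), XPO5 to LETM2 (0.979), CORO1C to SH3RF2 (0.970), ARHGAP39 to CLEC16A (0.979) and DCAKD to SH3PXD2A (0.939). Their falls were mostly shallower: LRRC56 was at -1.21, -0.68, -1.09 and -1.46, and CORO1C at -0.38, -0.53, -0.82 and -0.81. ABR, at -2.81, -2.13, -1.61 and -2.12, and CUTC, at -2.03, -1.53, -2.07 and -2.42, were nearer in size to EXOC6 and CTC1.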

How the data were processed

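Probes of the 10 genes, and all others, were taken from the deposited table of linear intensities, for which the submitters' processing notes name BeadStudio. The sources used here do not give its version, background correction or normalization. Since 20.4% of the deposited values were below 0, background had been subtracted. Of 22177 probes 21101 had 1 gene symbol in the platform annotation, the other 1076 had none or several, and 20986 matched the RefSeq gene table (GRCh38.p14). No arrays were identical (pairwise r from 0.9571 to 0.9992).

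Intensities under 10 were set to 10, which holds for 49.7% of values and understates changes of dim genes, and log2 was taken with no further normalization. The probe with the highest mean stood for its gene. Genes above the 40th percentile of all probes (5.59 to 5.605) on at least 3 arrays were kept. All 26 arrays entered 1 limma model (lmFit and eBayes, limma version 3.58.1 under R 4.3.3; statmod 1.5.0 for random blocks) with a cell for each of the 8 combinations of label, treatment and series, which leaves 18 residual degrees of freedom, and p-values were adjusted over 12962 genes by the Benjamini-Hochberg method. An adjusted p under 0.05 is a call. The script was tested on simulated data. A fold against an arm wholly under the floor is a bound, computed against 10.

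The 10 genes, the gene lists and the tests were chosen with earlier results of these data known. Of each list, all members were counted, and up to 4 called ones with the largest change, plus relatives of the 10, were named; CDKN1A, the nearest gene by r, and the 8th and 9th largest falls were named too.

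Replicate numbers, from the titles, were checked for pairing by the correlation of deviations from arm means between arrays of one number. In untreated arrays every pair correlated (r from 0.687 to 0.761 over 3 pairs in series 1 and from 0.327 to 0.814 over 4 pairs in series 2). In series 1 the best match bore the same number for 3 of 3 pairs, so the numbers pair those arrays. In series 2 it did for 2 of 4, not for replicates 7 and 8, so pairing by number is not settled there. The numbers do not pair the treated arrays (r from 0.0448 to 0.102 at 20 nM and from -0.0444 to -0.0286 at 2 nM). There the best match bore the same number for 2 of 3 pairs at 20 nM and 0 of 3 at 2 nM. Alternatives were the floor (5 or 30), quantile normalization, no filter or the 60th percentile, the mean of all probes, slide as a random block, the replicate block, only the arrays of a comparison, leaving out replicates 4 and 10, and leaving out each array. Slide as a fixed block was added after seeing the data.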

Additional observations from a re-analysis of the deposited data

Results flagged for a closer look

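The 20 sets of 4 untreated arrays (10 genes, both labels, series 2) read the same arrays for each gene, so they are not separate trials. The share of sets flagged over all genes was not computed. Of the 20, 5 held an array far from the other 3, by a test that chance passes in about 1 set in 20, and all 5 were untreated replicate 10. In WT-labelled cells it read 36.7 for LETM2 (others 92.8 to 102), 90.6 for SH3RF2 (others 157 to 163) and 208 for CLEC16A (others 233 to 237). In KO-labelled cells it read 29.4 for LETM2 (others 85.9 to 92.0) and 72.2 for SH3PXD2A (others 41.7 to 43.7). The response changes of these genes without both untreated replicates 10, and 4, remained below 0, SH3PXD2A in WT-labelled cells at 2 nM going from -0.60 to -0.40.

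Responses differed between the labels, by the direct test of the difference (KO-labelled minus WT-labelled, log2), for RHBDL3 (1.65), RHBDF2 (-1.06) and SH3PXD2A (1.46) at 20 nM, and for EXOC6 (-0.63), RHBDL3 (-1.48) and RHBDF2 (1.46) at 2 nM. These genes were chosen on the responses themselves, so the differences are a description. What sets the sign apart between the series was not tested.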

How the results depend on the processing

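The falls in the 4 responses kept their direction under every alternative run for them, except RHBDF2 in KO-labelled cells at 2 nM, which was at 0.00736 with the mean of both probes (-0.45 otherwise). Counts of the 10 called lower stayed at 10 when any 1 array was left out, except in WT-labelled cells at 2 nM (8 to 9). They ran from 8 to 10 under the other settings. The same responses chose the 10 genes, so nothing is read from these counts. Leaving out 1 array, calls over all genes in either direction were 5066 to 5633 (WT-labelled) and 4156 to 5557 (KO-labelled) at 20 nM. At 2 nM they were 4037 to 4639 and 5052 to 5673. A floor of 30, which by construction compresses dim genes, ended the calls of LETM2 (-0.76) and SH3RF2 (-0.25) in WT-labelled cells and of SH3PXD2A (-0.29) in KO-labelled cells at 20 nM. The call of CTC1 in KO-labelled cells at 20 nM was lost with only the arrays of that comparison in the fit. There 9 of the 10 were called lower, and calls over all genes, in either direction, went from 4816 to 3154. The untreated arrays of CTC1 in that comparison read 105, 34.4 and 38.2, and why its call was lost was not tested. SH3PXD2A in WT-labelled cells at 2 nM became a call with the 60th percentile filter (10 of 10), and without replicates 4 and 10. With the mean of all probes EXOC6 was at -0.92, -0.76, -0.80 and -1.03, its other probes being mostly under the floor.

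Label differences moved more. In untreated series 1, 5 of the 10 differed; it was 3 with slide as a random block (correlation within slides 0.259), 1 with only these arrays, 9 without replicates 4 and 10, 8 with the replicate block, 0 with slide as a fixed block (which rests on KO-labelled replicate 4 against WT-labelled 4 to 6), and 3 to 7 leaving out 1 array. In untreated series 2, 2 differed; it was 4 with the 60th percentile filter, 1 with slide as a random block, 4 with only these arrays, 7 without replicates 4 and 10, 6 with the replicate block, and 1 to 4 leaving out 1 array. The response difference between labels at 20 nM (3 genes) became 7 without replicates 4 and 10, 6 with the replicate block, 1 with slide as a fixed block and 2 to 5 leaving out 1 array, and at 2 nM (3 genes) 5 without replicates 4 and 10. The dose difference in KO-labelled cells (5 genes) became 3 with slide as a random block and 2 to 6 leaving out 1 array. Other probes called lower went from 1 to 2 with a floor of 5. Signs turned for THEM6 in untreated series 1 with slide as a fixed block (0.0321), for RHBDL3 between labels at 2 nM with a floor of 30 (0.0242) and for SH3RF2 between doses in KO-labelled cells with a floor of 30 (-0.0822). The cause was not tested.

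Over all genes, calls went in untreated series 1 from 1927 to 3997 with the replicate block, 1154 and 491 with slide as a random and a fixed block, 210 with only these arrays, 5121 without replicates 4 and 10, 3850 without KO-labelled replicate 4, and 1100 and 1145 without KO-labelled replicates 5 and 6. In untreated series 2 they went from 1186 to 2786 with the replicate block, 300 with slide as a random block and 3638 without replicates 4 and 10. Between labels at 20 nM they went from 1147 to 2868 with the replicate block, 726 and 462 with slide as a random and a fixed block, 750 with only these arrays, 4354 without replicates 4 and 10 and 2594 without KO-labelled replicate 4, and at 2 nM from 1547 to 3003 and 3947 with the replicate block and without replicates 4 and 10. Without replicates 4 and 10 the dose differences rose from 2529 to 5745 (WT-labelled) and from 2775 to 6218 (KO-labelled; 4419 without KO-labelled untreated replicate 4), and with only its arrays the KO-labelled 20 nM response held 3154 calls against 4816.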
